A study of Homo sapiens with 6 samples.

Results

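The secreted factors and receptors of the VEGF family, with ANGPT1, ANGPTL4, FGF2 and EDN1, were followed in a human mammary epithelial cell line that overexpresses the potassium channel subunit GIRK1. The 10 genes (VEGFA, VEGFB, VEGFC, PGF, FLT1, KDR, ANGPT1, ANGPTL4, FGF2 and EDN1) were taken by symbol from the 20802 genes of the assay, and all 10 were found. Expression was measured in 6 libraries labelled as MCF10A, an established non-tumorigenic breast epithelial line, by Ion AmpliSeq Transcriptome sequencing. This method amplifies 1 short stretch of cDNA per gene and counts the reads assigned to it. The markers of 1 library, wt replicate 1, go against that label, as described below. By their labels, 2 libraries were of the untransfected parental line (wt) and 2 of a control line that stably overexpressed eGFP. The remaining 2 were of a line that stably overexpressed the KCNJ3 gene product GIRK1. Both transfected lines were made with a vector that also encodes eGFP, were selected with G418 and were sorted for eGFP fluorescence, so that the control carries the vector and the marker but not the channel. The libraries held 2506120 (wt replicate 1), 16040556 (wt replicate 2), 5126930 and 10233974 (eGFP) and 11107309 and 10346572 (GIRK1) reads. Levels are given as reads and as RPM, the assigned count scaled to a common library size. As a limit of detection, 3 reads were taken, which is from 0.187 RPM in wt replicate 2 to 1.20 RPM in the library labelled wt replicate 1. Intervals of single libraries are exact (Clopper-Pearson) 95% intervals. Like this limit they account for counting error alone, because amplified reads are not independent molecules. The series' design counts 2 lines each of overexpressor and control where the methods count replicates, and the labels name no separate clones or cultures, so p-values may measure technical spread only. Both GIRK1 libraries carry a tag in the deposited names that the other 4 libraries lack, so that a run effect, should the tag mark one, and the channel cannot be told apart.

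VEGFA signals through the receptor tyrosine kinases FLT1 and KDR on endothelial cells, and VEGFB and PGF through FLT1. VEGFC acts on the lymphatic receptor FLT4 and on KDR. ANGPT1 is the activating ligand of the endothelial receptor TEK, ANGPTL4 is a secreted inhibitor of lipoprotein lipase that is induced by hypoxia and by PPAR receptors, FGF2 is a heparin-binding growth factor, and EDN1 gives rise to the vasoconstrictor peptide endothelin. Epithelial cells commonly secrete such ligands, whereas the receptors mark the vessels that respond. The study asked whether GIRK1 alters the ability of MCF10A cells to attract new vessels, and the comparison of interest is therefore GIRK1 with eGFP and with the parental line.

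Before the comparison, the libraries were checked against their labels. KCNJ3 counted 2408 and 3677 reads (217 and 355 RPM) in the GIRK1 libraries and 0 reads in both eGFP libraries and in wt replicate 2, which allows at most 0.585, 0.293 and 0.187 RPM (3 reads). The library labelled wt replicate 1 held 48 KCNJ3 reads (19.2 RPM, interval 14.1 to 25.4). In it 8 basal mammary markers summed to 385 RPM, against 7926 to 15564 RPM in the other 5 libraries, and KRT5 had 2 reads against 41922 to 61946. Its 9 luminal markers summed to 16395 RPM, with TFF1 (12796 reads) the most abundant, against 531 to 1025 RPM elsewhere, where ESR1, PGR, KRT19 and TFF1 had 0 reads. Between 39.9% and 40.7% of the 9212 genes that averaged 50 reads or more were 2-fold or more apart between it and each other library. It goes against its label, is shown apart below, and entered no main test. Endothelial markers were low in every library, with a sum of 0.387 to 3.71 RPM over 10 markers. Of these, 6 to 8 were at 0 per library, CDH5, VWF and CLDN5 among them in all 6. Summed over libraries, TEK was the most abundant of the 10. It had 35 reads in wt replicate 2 and 23 in eGFP replicate 2, above the 3-read limit.

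**Figure D1:**
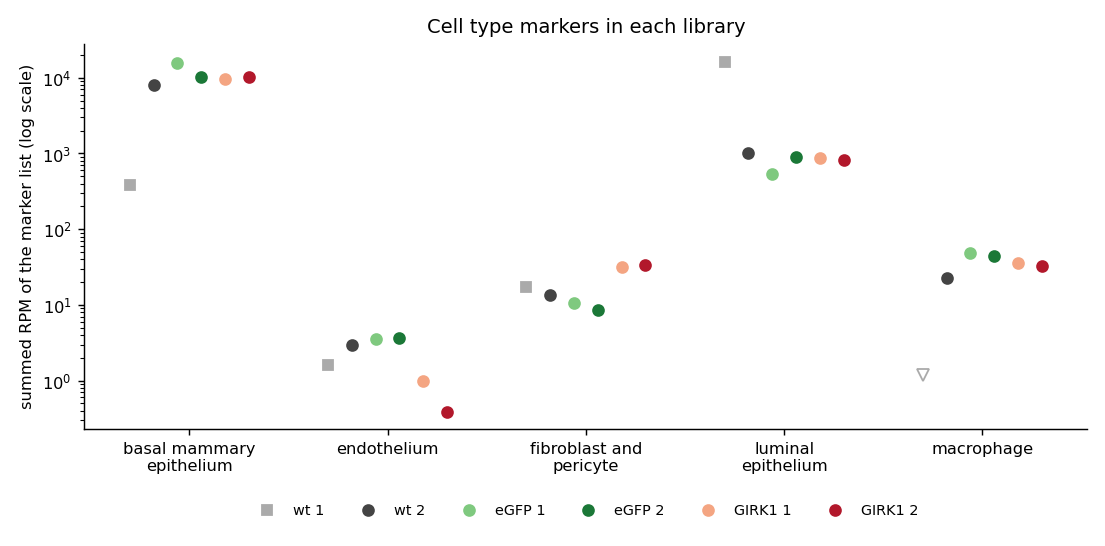
Summed RPM of 5 marker lists (log scale) in the 6 libraries. The library labelled wt replicate 1 (square) lies at 385 RPM for basal and 16395 RPM for luminal markers, apart from the other 5, and the open triangle is a sum of 0 drawn at the 3-read limit of that library.

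One of the eGFP libraries also stood apart. Of the same 9212 genes, 11.1% were 2-fold or more apart between the eGFP replicates, against 1.93% between the GIRK1 replicates and 1.52% between eGFP replicate 2 and wt replicate 2. This spread bears on several of the genes below, so values are given for every library. The model was fitted to the 5 libraries other than wt replicate 1 and tested 11389 genes, with 8 of the 10 genes among them (FLT1 and ANGPT1 had too few reads).

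None of the 8 genes passed the adjusted threshold of 0.05 in any comparison (edgeR's quasi-likelihood test, Benjamini-Hochberg adjusted, as for every adjusted p below unless DESeq2 is named). Between GIRK1 and eGFP, 0 of 8 passed where 1.55% of all genes tested did (176 genes, 88 in each direction). The count was 0 of 8 also against wt replicate 2, where 0.237% of all genes passed, and against the 3 control libraries together (both eGFP libraries and wt replicate 2), where 1.21% passed. The unadjusted p between GIRK1 and eGFP was below 0.05 in 4 of the 8 genes (VEGFC, PGF and ANGPTL4 lower, EDN1 higher in GIRK1), as in 19.1% of all genes tested (10.9% lower and 8.24% higher). DESeq2 called ANGPTL4 and VEGFC in that comparison, where it called 6.01% of all genes, and EDN1 and VEGFC against the 3 control libraries, where it called 7.08%. In 3 genes both GIRK1 libraries lay outside the range of the 3 control libraries: VEGFC and ANGPTL4 below it, as did 19.5% of all genes, and EDN1 above it, as did 21.6%.

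The promoters of these 3 genes are shown because both GIRK1 libraries lay on one side of all 3 controls. Each is the 250 bases before a RefSeq transcription start (GRCh38.p14), with matches to ACGTG or GCGTG on either strand, the core recognised by hypoxia-inducible factors and other basic helix-loop-helix proteins, in capitals.
VEGFC, chr4:176792923-176793172, minus strand: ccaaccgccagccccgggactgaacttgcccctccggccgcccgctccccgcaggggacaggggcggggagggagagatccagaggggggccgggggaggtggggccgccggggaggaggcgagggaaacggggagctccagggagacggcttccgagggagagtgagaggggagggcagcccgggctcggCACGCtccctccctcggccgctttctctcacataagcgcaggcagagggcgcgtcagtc
ANGPTL4, chr19:8363905-8364154, plus strand: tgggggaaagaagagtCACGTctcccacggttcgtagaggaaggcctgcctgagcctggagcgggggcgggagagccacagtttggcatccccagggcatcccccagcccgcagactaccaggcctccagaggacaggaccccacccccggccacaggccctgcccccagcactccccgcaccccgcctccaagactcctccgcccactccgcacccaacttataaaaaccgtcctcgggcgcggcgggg
EDN1, chr6:12290111-12290360, plus strand: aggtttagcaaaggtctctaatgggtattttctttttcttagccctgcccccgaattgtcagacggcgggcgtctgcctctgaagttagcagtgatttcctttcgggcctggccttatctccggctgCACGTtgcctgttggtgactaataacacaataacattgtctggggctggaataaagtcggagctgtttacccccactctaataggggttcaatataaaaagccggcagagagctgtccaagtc
VEGFC held 1 GCGTG match that begins 59 bases before the start, ANGPTL4 held 1 ACGTG match at 234 bases, and EDN1 held 1 ACGTG match at 123 bases. Such matches do not set these 3 genes apart, since of the other 5 genes of the 10 with a RefSeq window, 4 (VEGFB, PGF, FLT1 and FGF2) held a match as well. Among 35116 RefSeq promoters of the same length, 18.5% held ACGTG and 32.2% held GCGTG. The AP-1 core TGANTCA was in none of the 3 windows and in 6.57% of all promoters. For EDN1, RefSeq lists 3 starts, and the window shown belongs to the one nearest to a GENCODE transcript start (2 bases away). That of ANGPTL4 is 1 base and that of VEGFC 195 bases from such a start. The ANGPTL4 window lies inside the GENCODE gene span given below, because other transcripts of that gene begin further upstream. The window before the EDN1 start that lies 2344 bases away held 2 ACGTG matches and 1 GCGTG match, and the third EDN1 window held none. A match is a description of the letters and not a site.

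VEGFA, the principal ligand of vessel growth (chr6:43770184-43786487, GRCh38, plus strand), had 236 and 1298 reads (46.0 and 127 RPM) in the eGFP libraries, 1614 reads (101 RPM) in wt replicate 2, and 720 and 804 reads (64.8 and 77.7 RPM) in the GIRK1 libraries. Both GIRK1 libraries lay between the eGFP replicates, which were 2.76-fold apart. The means were 86.4 ± 57.1 RPM in eGFP and 71.3 ± 9.11 RPM in GIRK1 (SD, n = 2 each). The log2 fold change was -0.30 (SE 0.41, 95% interval -1.29 to 0.68, adjusted p = 0.716, edgeR). Against wt replicate 2, a single library assumed to vary like the others, it was -0.48 (SE 0.49, adjusted p = 0.897, same edgeR test). The value depended on which eGFP library was used. Without eGFP replicate 1 the difference from eGFP was -0.81 and without eGFP replicate 2 it was 0.53, each with 1 eGFP library left.

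The VEGFA amplicon (123 bases, 57.7% GC) also differed from most others in how its reads were counted. Only 31.7% to 38.0% of the reads that overlapped it were assigned to it in each library (1614 of 4581 in wt replicate 2, for instance), and 99.5% of assigned reads were on the forward strand. Among 10744 amplicons with at least 100 overlapping reads the median share assigned was 99.4%, and 35 amplicons (0.326%) were at or under that of VEGFA. With overlapping reads in place of assigned reads, an alternative added after the data had been seen, no gene of the 10 passed the threshold in any comparison. The other 8 amplicons with reads assigned 99.2% to 100% of theirs. Among them EDN1 was uneven by strand, with 22.4% of its assigned reads on the forward strand over the 6 libraries. The median forward share of the amplicons with at least 100 overlapping reads was 49.0%.

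**Figure D2:**
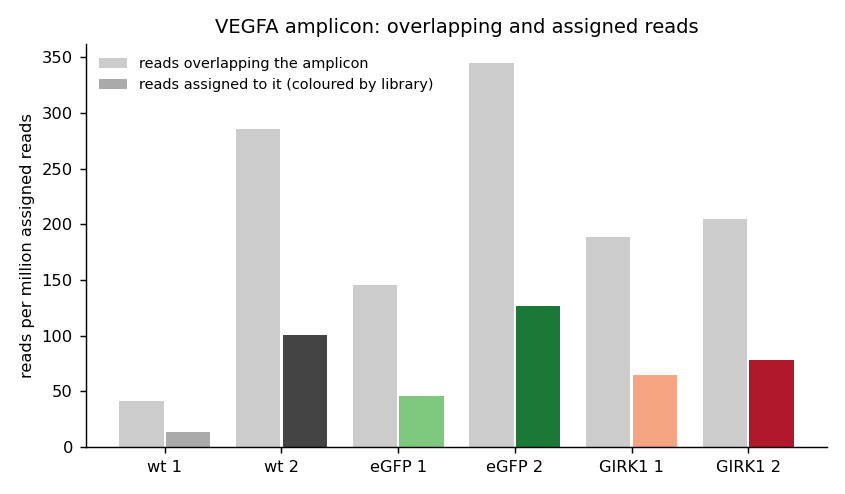
Reads that overlapped the VEGFA amplicon (grey, left of each pair) and reads assigned to it (coloured), both on the RPM scale, in each library. In all 6 libraries the assigned bar is between 31.7% and 38.0% of its neighbour, and eGFP replicate 2 has the highest bar of each kind.

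VEGFB, a ligand of FLT1, varied little between the 5 libraries. It had 63.4 and 52.9 RPM in the eGFP libraries (325 and 541 reads), 43.9 RPM in wt replicate 2 (704 reads) and 58.4 and 49.2 RPM in the GIRK1 libraries (649 and 509 reads). The groups overlapped, with means of 58.1 ± 7.44 RPM in eGFP and 53.8 ± 6.53 RPM in GIRK1 (SD, n = 2 each). The log2 fold change was -0.16 against eGFP, with a 95% interval of -0.71 to 0.39, and 0.31 against wt replicate 2 (-0.37 to 0.99), so a change of 2-fold lies outside the first interval and just outside the second.

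VEGFC, the lymphatic ligand (chr4:176683538-176792727, minus strand), had 129 and 137 reads (25.2 and 13.4 RPM) in the eGFP libraries, 231 reads (14.4 RPM) in wt replicate 2, and 94 and 69 reads (8.46 and 6.67 RPM) in the GIRK1 libraries. All 3 controls were above both GIRK1 libraries, and the intervals of eGFP replicate 2 (11.2 to 15.8 RPM) and GIRK1 replicate 1 (6.84 to 10.4 RPM), the nearest pair, did not overlap. The mean was 2.55-fold lower in GIRK1 (7.57 ± 1.27 RPM) than in eGFP (19.3 ± 8.33 RPM; SD, n = 2 each). On the log2 scale the difference was -1.39 against eGFP (SE 0.40, adjusted p = 0.143), -0.91 against wt replicate 2 (SE 0.46, adjusted p = 0.743) and -1.24 against the 3 controls (SE 0.37, adjusted p = 0.156), edgeR. None passed. DESeq2's test called the difference from eGFP (adjusted p = 0.0426) and from the 3 controls (adjusted p = 0.0405). Without eGFP replicate 2 the difference from eGFP was -1.83 and without eGFP replicate 1 it was -0.81, each with 1 eGFP library left. Without eGFP replicate 1 the difference from the remaining controls was -0.86 and passed (adjusted p = 0.0482, edgeR), as did 8.61% of all genes tested. Leaving out a GIRK1 library gave -1.56 and -1.25 against eGFP, with an adjusted p of 0.389 and 0.581 (edgeR).

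PGF, a FLT1 ligand, was low in all libraries. It had 53 and 35 reads (10.3 and 3.42 RPM) in the eGFP libraries, 13 reads (0.810 RPM) in wt replicate 2, and 23 and 14 reads (2.07 and 1.35 RPM) in the GIRK1 libraries. GIRK1 was below both eGFP libraries and above wt replicate 2, so that the direction depended on the control. On the log2 scale GIRK1 differed by -2.02 from eGFP (SE 0.66, adjusted p = 0.178) and by 1.09 from wt replicate 2 (SE 0.88, adjusted p = 0.853; edgeR). The eGFP libraries themselves were 3.11 above wt replicate 2 on the log2 scale (adjusted p = 0.952, edgeR). With 1 library left out at a time, that difference ranged from 2.06 to 3.78. These comparisons share libraries. Without eGFP replicate 1 the difference between GIRK1 and eGFP was -0.97, and without eGFP replicate 2 it was -2.68, each with 1 eGFP library left.

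The receptors FLT1 and KDR had 0 to 20 reads per library, and most endothelial markers had 0. FLT1 (chr13:28300344-28495145, minus strand) had 0 reads in all 6 libraries. The upper bound of its exact 95% interval was 1.47 RPM in wt replicate 1 and 0.230 to 0.720 RPM in the others. KDR (chr4:55078259-55125595, minus strand) had 6 and 11 reads in the eGFP libraries, 6 in wt replicate 2, and 20 and 4 in the GIRK1 libraries. Its GIRK1 replicates (1.80 and 0.387 RPM) were the highest and the second lowest of the 5 libraries, with wt replicate 2 at 0.374 RPM, and its log2 fold change against eGFP was -0.05 with a 95% interval of -1.98 to 1.87, so that no difference was detectable at this depth. ANGPT1 had 0 and 1 read in the eGFP libraries, 6 in wt replicate 2, and 13 and 3 in the GIRK1 libraries. No fold against eGFP is given for ANGPT1, since eGFP was under the 3-read limit.

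ANGPTL4 (chr19:8363289-8374373, plus strand) showed the widest range of the genes with reads in all 5 libraries. eGFP replicate 1 held 1477 reads (288 RPM) and eGFP replicate 2 held 245 reads (23.9 RPM), a 12.0-fold gap within the control line. It had 203 reads (12.7 RPM) in wt replicate 2 and 110 and 68 reads (9.90 and 6.57 RPM) in the GIRK1 libraries, which were the lowest of the 5. The intervals of wt replicate 2 (10.97 to 14.52 RPM) and GIRK1 replicate 1 (8.14 to 11.9 RPM), the nearest pair, overlapped. The log2 fold change was -4.33 against eGFP (SE 1.09, 95% interval -6.93 to -1.72, adjusted p = 0.115) and -0.60 against wt replicate 2 (SE 1.20, interval -3.46 to 2.26, adjusted p = 0.957), edgeR. Without eGFP replicate 1 the difference from eGFP was -1.52, and without eGFP replicate 2 it was -5.22. Each of these fits leaves 1 eGFP library that is assumed to vary like the other groups. Their spread comes from the GIRK1 pair alone, so no p-value is given. Both GIRK1 libraries were lower than either eGFP library, and the size of the difference depended on which one was used.

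FGF2 (chr4:122826708-122898236, plus strand) had 77 and 466 reads (15.0 and 45.5 RPM) in the eGFP libraries, 1270 reads (79.2 RPM) in wt replicate 2, and 300 and 381 reads (27.0 and 36.8 RPM) in the GIRK1 libraries. The GIRK1 libraries lay between the eGFP replicates, which were 3.03-fold apart, and wt replicate 2 was the highest of all. The GIRK1 libraries differed by 0.04 on the log2 scale from eGFP (SE 0.46, adjusted p = 0.968) and by -1.29 from wt replicate 2 (SE 0.53, adjusted p = 0.664), edgeR. The eGFP libraries differed from wt replicate 2 by -1.33 in the same fit (adjusted p = 0.952, edgeR). With 1 library left out at a time, that eGFP difference ranged from -2.27 to -0.80. The difference of GIRK1 from wt replicate 2 then ranged from -1.55 to -1.07. With either eGFP library left out, the spread of that comparison came from the GIRK1 pair alone, so no p-value is given. Against eGFP the difference of GIRK1 was -0.50 without eGFP replicate 1 and 0.99 without eGFP replicate 2, each with 1 eGFP library left.

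EDN1 (chr6:12290363-12297194, plus strand) was the one gene of the 10 with both GIRK1 libraries above all 3 controls. It had 12 and 10 reads (2.34 and 0.977 RPM) in the eGFP libraries, 24 reads (1.50 RPM) in wt replicate 2, and 44 and 67 reads (3.96 and 6.48 RPM) in the GIRK1 libraries. The intervals of GIRK1 replicate 1 (2.88 to 5.32 RPM) and eGFP replicate 1 (1.21 to 4.09 RPM) overlapped, and those of GIRK1 replicate 2 (5.02 to 8.22 RPM) and each control did not. The mean was 3.15-fold higher in GIRK1 (5.22 ± 1.78 RPM) than in eGFP (1.66 ± 0.964 RPM; SD, n = 2 each). The differences on the log2 scale were 1.70 against eGFP (SE 0.60, adjusted p = 0.201), 1.81 against wt replicate 2 (SE 0.71, adjusted p = 0.653) and 1.74 against the 3 controls (SE 0.48, adjusted p = 0.134), edgeR. None passed. Without eGFP replicate 1 the difference was 2.42 against eGFP, with 1 eGFP library left. Against the remaining controls it was then 2.05 and passed (adjusted p = 0.0241, edgeR), as did 8.61% of all genes tested. Without eGFP replicate 2 the difference was 1.05 against eGFP. Against the remaining controls it was then 1.46 and did not pass (adjusted p = 0.338, edgeR). Without GIRK1 replicate 2 it was 1.25 against eGFP and 1.31 against the 3 controls, with 1 GIRK1 library left.

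**Figure D3:**
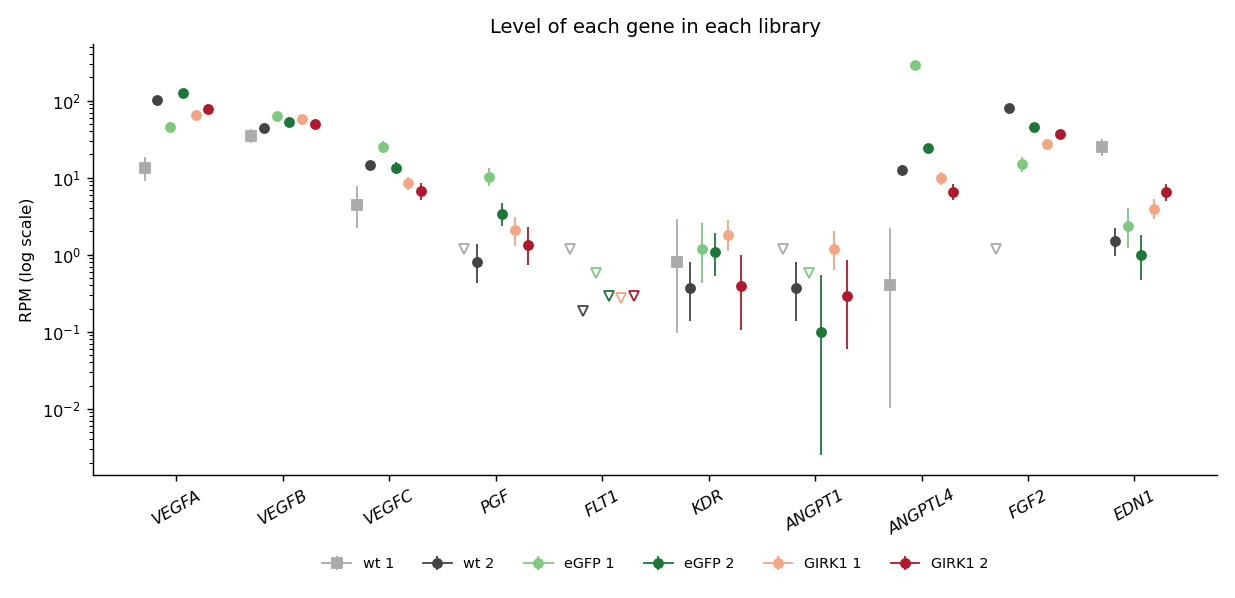
RPM (log scale) of the 10 genes in each library, with exact 95% intervals. Open triangles are 0 reads drawn at the 3-read limit of that library, and the square is the library labelled wt replicate 1. VEGFC and ANGPTL4 lie below the 3 controls in both GIRK1 libraries (6.67 to 8.46 and 6.57 to 9.90 RPM), and EDN1 lies above them (3.96 and 6.48 RPM).

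**Figure D4:**
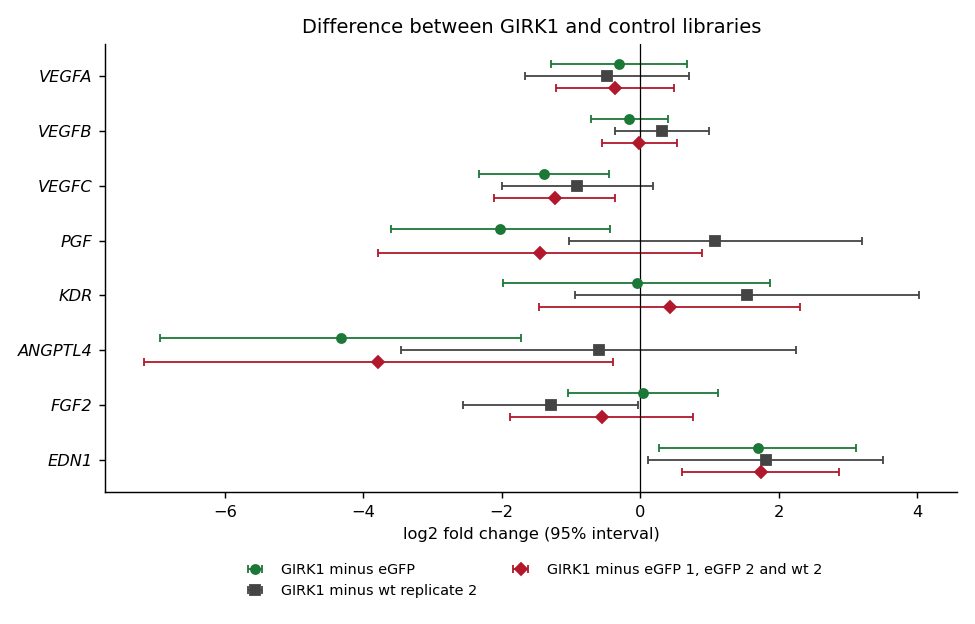
Log2 fold change with its 95% interval for the 8 genes tested, as GIRK1 minus eGFP (circles), minus wt replicate 2 (squares) and minus the 3 control libraries (diamonds). The intervals of VEGFC, PGF, ANGPTL4 and EDN1 against eGFP exclude 0 before adjustment, and PGF lies on opposite sides of 0 against eGFP (-2.02) and wt replicate 2 (1.09).

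The rule stated in the methods of the study combines a 2-fold threshold with a limit of 0.7 on the coefficient of variation. Applied to mean RPM of GIRK1 and eGFP, with the sample SD in each group, it called EDN1 higher and VEGFC lower among the 10 genes, beside 6.29% of all 20802 genes (3.01% higher and 3.28% lower). PGF was 4.02-fold lower, with a coefficient of variation of 0.711 in eGFP, just outside the limit. ANGPTL4 was 18.9-fold lower by the means, with a coefficient of 1.20 in eGFP. With the population SD, which called 7.86% of all genes, PGF was called lower too. With raw counts in place of RPM, PGF was called in place of VEGFC, and 6.11% of all genes were called higher and 1.3% lower. The rule carries no test.

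The library labelled wt replicate 1 differed from the other 5 in several of the 10 genes, as it did in its epithelial markers. PGF had 0 reads, which at its depth cannot be told from wt replicate 2. FGF2 had 0 reads, ANGPTL4 had 1 read (0.399 RPM) and VEGFA had 33 reads (13.2 RPM, interval 9.06 to 18.5), below the intervals of every other library. VEGFC had 11 reads (4.39 RPM, interval 2.19 to 7.85), which overlapped the GIRK1 libraries. VEGFB had 87 reads (34.7 RPM, interval 27.8 to 42.8). Its interval overlapped that of wt replicate 2 (40.7 to 47.3 RPM) and lay below those of the eGFP and GIRK1 libraries. EDN1 was the exception, with 62 reads (24.7 RPM, interval 19.0 to 31.7), above every other library.

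The other genes of the pathway were followed in 9 lists of 126 genes in all, and 85 of them passed the filter on low counts. Between GIRK1 and eGFP, 8 of the 85 passed the adjusted threshold (9.41%, against 1.55% of all genes tested), 1 higher and 7 lower in GIRK1. The lists were chosen with earlier results of these data known, and the paper had named THBS1 and CCBE1 among its downregulated genes. The shares are therefore a description and not a test of the pathway as a set. DESeq2 called 22 of the 85 (beside 6.01% of all genes), the fit with the replicate number as a block also 22 (beside 4.51%), and the fit that included wt replicate 1 called 0 of 85 and 0 of all genes (edgeR; 611 of all genes at an unadjusted p below 0.05). Against wt replicate 2, 0 of 85 passed with edgeR's quasi-likelihood test, beside 0.237% of all genes. There 17 of the 85 (20%) had an unadjusted p below 0.05, beside 7.49% of all genes, and DESeq2 called 4, beside 1.12%. Leaving out eGFP replicate 1 or 2 raised the edgeR count against wt replicate 2 to 11 and 10 (beside 3.44% and 3.41% of all genes). Against the 3 controls 2 of 85 passed with edgeR (2.35%, beside 1.21% of all genes), 23 without eGFP replicate 1 (beside 8.61%), 8 without wt replicate 2 (beside 1.52%) and 21 with DESeq2 (beside 7.08%). The 8 genes that passed against eGFP also passed without eGFP replicate 1, when 21 of the 85 and 6.09% of all genes did, and without eGFP replicate 2, when 48 of the 85 and 25.3% of all genes did. Without GIRK1 replicate 1, 4 of the 8 still passed (CA9, CXCL8, SPARC and TYMP), and without GIRK1 replicate 2, 5 did (CA9, CCBE1, SPARC, THBS1 and TYMP). TYMP and SPARC, the genes that passed against the 3 controls, did not pass there without eGFP replicate 2 or either GIRK1 library. In bulk samples, fewer cells of a type and less RNA per cell cannot be told apart.

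Among 10 other ligands, receptors and co-receptors of the VEGF and PDGF families, 4 were tested and NRP1, the co-receptor that binds VEGFA beside KDR, fell. It had 40.6 and 36.5 RPM in the eGFP libraries, 16.6 RPM in wt replicate 2 and 10.7 and 8.99 RPM in the GIRK1 libraries. All 3 controls were above both GIRK1 libraries, with wt replicate 2 nearer to GIRK1 than to eGFP. The log2 fold change was -2.01 against eGFP (SE 0.26, adjusted p = 0.0212) and -1.68 against the 3 controls (SE 0.42, adjusted p = 0.116), edgeR. NRP2, the related co-receptor that also binds VEGFC, was at 37.1 and 30.3 RPM in eGFP, 24.7 RPM in wt replicate 2 and 14.9 and 12.4 RPM in GIRK1. It did not pass (-1.35 against eGFP, SE 0.26, adjusted p = 0.0702, edgeR). PDGFA (0.17) and PDGFC (0.07) had log2 fold changes within their standard errors, and FLT4, the receptor of VEGFC, had 0 reads in all 5 libraries. In the angiopoietin and Tie list only TEK of 9 genes was tested, at -2.46 (SE 0.78, adjusted p = 0.168, edgeR) from 9 and 23 reads in eGFP, 35 in wt replicate 2 and 7 and 1 in GIRK1. Of the endothelin system only ECE1, the converting enzyme, of 6 genes was tested (0.49, adjusted p = 0.346, edgeR), and both receptors, EDNRA and EDNRB, had at most 1 read in any library.

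Among 22 other pro-angiogenic factors, a list of secreted chemokines and growth factors that also holds membrane proteins (such as F3, JAG1 and the ephrins) and the intracellular enzyme TYMP, 17 were tested, 11 of them with a negative log2 fold change against eGFP, and 2 passed in opposite directions. TYMP, thymidine phosphorylase, rose from 23.0 and 46.3 RPM in eGFP and 55.0 RPM in wt replicate 2 to 267 and 301 RPM in GIRK1 (log2 fold change 3.00 against eGFP, SE 0.33, adjusted p = 0.0128; 2.76 against the 3 controls, adjusted p = 0.0113; edgeR). CXCL8, the chemokine interleukin-8, listed under its older symbol IL8, fell from 63.0 and 25.5 RPM in eGFP to 5.67 and 3.96 RPM in GIRK1 (-3.25, SE 0.51, adjusted p = 0.0406, edgeR), with 16.7 RPM in wt replicate 2. F3, tissue factor, had 581 and 138.8 RPM in eGFP, 81.2 RPM in wt replicate 2 and 34.0 and 35.3 RPM in GIRK1. It did not pass against eGFP (-3.45, adjusted p = 0.0688, edgeR), and its log2 difference from wt replicate 2 was -1.21.

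Among 18 secreted inhibitors of angiogenesis, 13 were tested and 2 fell. THBS1, thrombospondin, had 426 and 320 RPM in eGFP, 157 RPM in wt replicate 2 and 68.6 and 87.0 RPM in GIRK1 (-2.31 against eGFP, SE 0.28, adjusted p = 0.0171). SPARC, a matricellular protein that binds growth factors, had 104 and 52.2 RPM in eGFP, 31.7 RPM in wt replicate 2 and 1.89 and 0.483 RPM (21 and 5 reads) in GIRK1 (-6.06, SE 0.64, adjusted p = 0.0110; edgeR). SPARC was the other gene that passed against the 3 controls (-5.73, adjusted p = 0.0217, edgeR). TIMP1, the most abundant inhibitor of the list, was at 654 and 616 RPM in eGFP and 552 and 580 RPM in GIRK1 (-0.21, adjusted p = 0.612, edgeR).

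Among 24 genes of the hypoxia-inducible factor pathway, 23 were tested, 17 of them with a negative log2 fold change against eGFP, and the median was -0.69 beside 0.01 over all genes. EPAS1, an alpha subunit of the factor, fell by 1.59 on the log2 scale from 155 and 113 RPM to 50.1 and 42.4 RPM (SE 0.26, adjusted p = 0.0442). CA9, a carbonic anhydrase that is a classical target, had 59.3 and 14.8 RPM in eGFP, 6.05 RPM in wt replicate 2 and 0.900 and 0.290 RPM (10 and 3 reads) in GIRK1 (-5.97, SE 0.90, adjusted p = 0.0369; edgeR). LDHA (-1.71, adjusted p = 0.167) and DDIT4 (-0.66, adjusted p = 0.158) did not pass. The median was -0.02 against wt replicate 2, where 12 of 23 were negative, and without eGFP replicate 1 it was -0.18 against eGFP, where 15 of 23 were negative and 5 passed, beside 6.09% of all genes.

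Of 13 genes for FGF2 receptors and modulators 9 were tested and 0 passed (edgeR; 5 of 9 at an unadjusted p below 0.05, beside 19.1% of all genes), with a median of -1.08. Without eGFP replicate 1 that median was -0.21, and against wt replicate 2 it was -0.29. SDC1 (-1.08, adjusted p = 0.326) and SDC4 (-0.18, adjusted p = 0.658), which carry heparan sulfate, were the most abundant. Of 13 genes for heparan sulfate and VEGF release, 9 were tested and CCBE1, a secreted protein needed for VEGFC maturation, fell from 45.4 and 20.5 RPM in eGFP to 3.42 and 3.87 RPM in GIRK1 (-3.22, SE 0.47, adjusted p = 0.0337, edgeR), with 8.10 RPM in wt replicate 2. MMP14, a matrix protease (-0.30), and FURIN, which processes VEGFC (-0.33), did not pass. Of 11 genes of the PPAR list, which holds the 3 receptors (PPARA, PPARD and PPARG) and 8 targets, 8 were tested, the receptors among them, and 0 passed (edgeR; 2 of 8 at an unadjusted p below 0.05, both higher), with a median of 0.13, and CPT1A (-0.11) and ACADVL (0.15) were the most abundant.

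**Figure D5:**
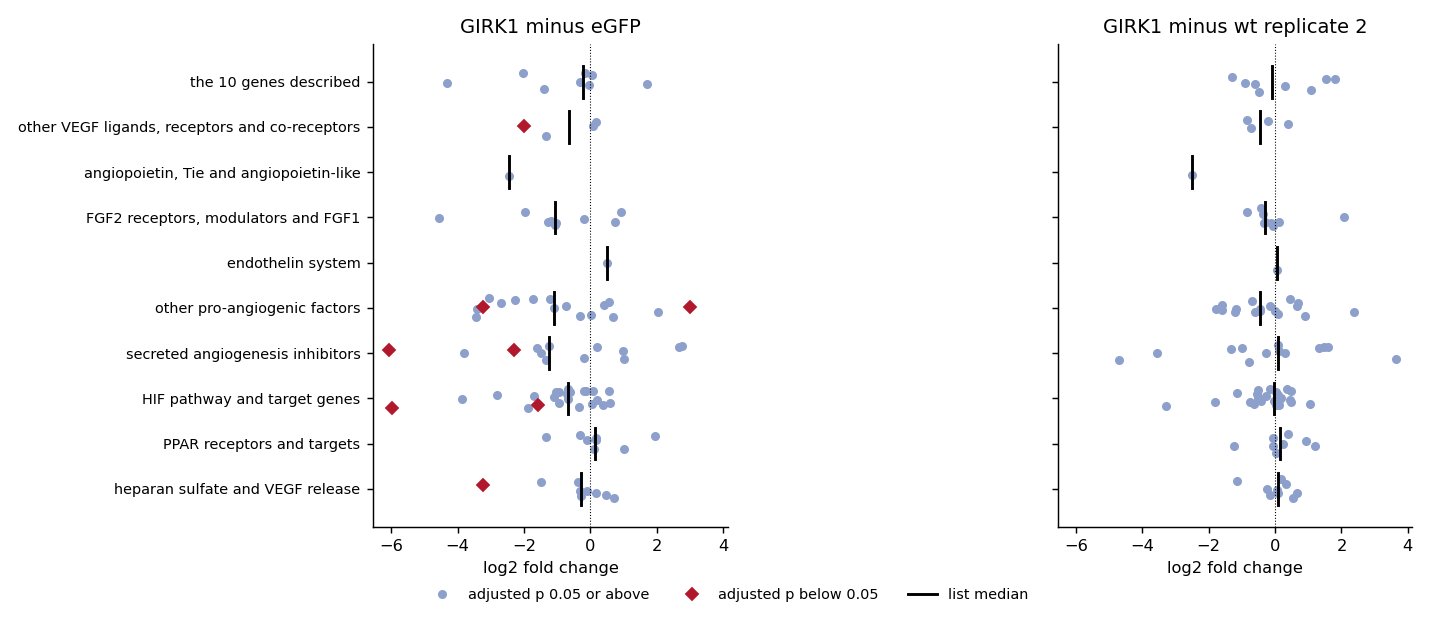
Log2 fold change of each tested gene in the 10 genes described and in the 9 pathway lists, as GIRK1 minus eGFP (left) and GIRK1 minus wt replicate 2 (right). Diamonds are genes with an adjusted p below 0.05, of which there are 8 on the left and 0 on the right, and bars are list medians, for instance -0.69 (left) and -0.02 (right) in the hypoxia-inducible factor list.

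Since eGFP replicate 1 decided several of these values, the genes in which it stood apart were counted, a count chosen after ANGPTL4 had been seen. It was the highest of the 5 libraries and at least 2-fold over eGFP replicate 2 in 5.16% of all genes tested, in 2 of the 8 genes (PGF and ANGPTL4), and in 9 of 23 genes of the hypoxia-inducible factor list (39.1%), among them CA9, LDHA, PGK1, PDK1, NDRG1 and BNIP3. The same held for 4 of 9 genes for FGF2 receptors and modulators (44.4%), 6 of 17 other pro-angiogenic factors (35.3%) and 23 of the 85 genes of all 9 lists (27.1%). LDHA, lactate dehydrogenase A, had 3767 RPM in that library against 752 to 1146 RPM in the other 4. It was the lowest and at least 2-fold under eGFP replicate 2 in 9.39% of all genes, in VEGFA and FGF2, and in 0 of 23 genes of that list. VEGFA, a known target of the same factors, was 2.76-fold lower in eGFP replicate 1 than in eGFP replicate 2. Its amplicon is the one with the low share of assigned reads described above. Why eGFP replicate 1 stood apart was not tested.

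Basal markers differed in both directions between the GIRK1 and eGFP libraries, with KRT17 higher (2.16, adjusted p = 0.00960) and LAMB3 lower (-2.81, adjusted p = 0.00366; edgeR). The 8 summed to 9593 and 10331 RPM in GIRK1, 15564 and 10108 RPM in eGFP and 7926 RPM in wt replicate 2. The fibroblast and pericyte list summed to 31.9 and 33.5 RPM in GIRK1 against 8.60 to 13.7 RPM in the 3 controls, of which DCN made up most in GIRK1 (27.0 and 25.2 RPM), while COL1A2 and RGS5 were at 0 in all 6 libraries. The macrophage list summed to 32.4 and 35.8 RPM in GIRK1 and 22.4 to 49.0 RPM in the controls, with CD68 the most abundant and PTPRC at 0. The endothelial list summed to 0.990 and 0.387 RPM in GIRK1 and 2.93 to 3.71 RPM in the 3 controls. Its 2 tested markers were lower in GIRK1 than in eGFP at an unadjusted p below 0.05, as were 10.9% of all genes tested. Neither passed the adjusted threshold (edgeR). The part of these markers in the levels of the 10 genes was not tested.

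For the 5 genes of the 10 that averaged 50 reads or more, the genes with the most similar profile were sought among 9288 genes over all 6 libraries, by the root mean square difference of centred log2 RPM. VEGFB was matched closest by CTDSPL (0.0629), VEGFC by ANXA2 (0.107), VEGFA by LOC550112 (0.176), FGF2 by HBEGF (0.289) and ANGPTL4 by MT1L (0.603). The library labelled wt replicate 1 enters each of these profiles, and ANGPTL4, with the widest range, had no neighbour nearer than 0.603.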

How the data were processed

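The authors mapped the reads of 6 libraries labelled as MCF10A to the AmpliSeq transcriptome reference with the Ion Torrent software. They deposited 1 coverage table per library. It gives, per amplicon, the assigned read count (whole numbers, not normalized), overlapping and strand-specific reads, and an RPM value, which the authors scaled to the library's total count. Amplicon ends and GC bases are deposited as numbers of another kind and served for length and GC content. Of 20812 amplicons, 10 spike-in rows with 0 reads were left out. Amplicons are placed on transcripts rather than on a genome. Gene positions come from the GENCODE annotation (GRCh38), and promoters from RefSeq (VEGFA and ANGPT1 were not matched; of several starts, the one nearest to a GENCODE transcript start).

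Counts were tested in R 4.3.3 with edgeR 4.0.16 (TMM, filterByExpr with GIRK1 and control as groups, glmQLFit, glmQLFTest) and DESeq2 1.42.0 over 5 libraries, with Benjamini-Hochberg adjustment over 11389 genes and a threshold of 0.05. The fit was tested on simulated counts, and no result of that test is given or used here. The members, lists and tests were chosen with earlier results of these data known. Named genes were the 10 members, KCNJ3, every list gene past the threshold against eGFP or the 3 controls, and the 2 most abundant genes of each list. NRP2, the remaining tested gene of its list, is given as well. For members with a mean of at least 50 reads, neighbours were sought (pseudocount 0.5 reads). Replicate numbers were not taken to pair libraries. Alternatives were other normalizations and filters, DESeq2, all 6 libraries, the 4 compared, a replicate block and leaving out each library.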

Additional observations from a re-analysis of the deposited data

Results flagged for a closer look

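EDN1 reached 24.74 RPM (62 reads) in the library labelled wt replicate 1, which entered no main test. This lay above the exact 95% interval of every other control library. KCNJ3, the overexpressed gene, reached 19.15 RPM (48 reads) in the same library, where the other 3 controls had 0 reads. These are values of a single library whose markers go against its label, with no replicate.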

How the results depend on the processing

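Of 394 values of single members under an alternative, 344 kept their direction and their side of the threshold, 25 passed where the reported fit had not, 0 lost a call and 25 changed sign; no member was past the threshold in the reported fit. The cause of these changes was not tested. Size factors of DESeq2, library totals, overlapping reads and the fit of only the 4 libraries compared moved no count beyond 1.5 times.

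The share of tested genes called between GIRK1 and eGFP, 1.55% in the reported fit, was 5.69% with no filter on low counts (3 members: ANGPTL4, PGF and VEGFC) and 6.01% with DESeq2 (2 members). Against wt replicate 2, 0.237% in the reported fit, it was 0.875% and 1.12%, and against the 3 controls, 1.21% in the reported fit, 2.46% and 7.08% (2 members). Between eGFP and wt replicate 2, 0 in the reported fit (377 genes at an unadjusted p below 0.05), it was 0.0395% and 0.0439%. A minimum of 10 reads in all 5 libraries gave 1.07%, 0.16%, 1.1% and 0% in these 4 comparisons. With all 6 libraries in the fit, so that wt stands for both wt libraries, it was 0 against eGFP, 0 against wt and 0.079% against all 4 controls (edgeR; 611, 648 and 771 genes at an unadjusted p below 0.05), and KCNJ3 was not called. There the log2 fold changes that changed sign were VEGFA (0.34), ANGPTL4 (0.22) and EDN1 (-1.16) against wt, VEGFB (0.13) and EDN1 (-0.32) against all controls, and VEGFA (0.63) and EDN1 (-2.81) for eGFP against wt.

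The labels do not say that the replicate numbers pair the libraries, and 2 numbers are too few for the data to show it. The replicate differences of eGFP and GIRK1 correlated at 0.197 over 9212 genes, and those that involve wt are not read, because of wt replicate 1. The replicate block called 4.51% of genes and 1 member (ANGPTL4, adjusted p = 0.0266) against eGFP, 0.641% against wt replicate 2, 4.9% and 1 member (VEGFC, adjusted p = 0.0347) against the 3 controls and 0.00878% between eGFP and wt replicate 2. Under the block KDR turned to -0.12 against the 3 controls, and VEGFA to 0.10 for eGFP against wt. VEGFB against the 3 controls was 0.016 with library totals and 0.0041 with the minimum of 10 reads.

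Leaving out each library in turn, the share called ranged from 0.799% (without GIRK1 replicate 2) to 25.3% (without eGFP replicate 2) against eGFP, from 0.211% to 3.44% against wt replicate 2, from 0.167% to 8.61% against the 3 controls and from 0% to 10.1% for eGFP against wt replicate 2. The members called ranged from 0 to 4, 0 to 1, 0 to 3 and 0 to 4 in the same order. Against eGFP, the log2 fold change ranged from -0.81 to 0.53 for VEGFA, -0.34 to 0.041 for VEGFB, -1.52 to 0.63 for KDR and -0.50 to 0.99 for FGF2. Against the 3 controls it ranged from -0.15 to 0.17 for VEGFB, -1.05 to 1.10 for KDR and -0.95 to 0.046 for FGF2. For eGFP against wt replicate 2 it ranged from -1.005 to 0.34 for VEGFA, -0.10 to 0.93 for VEGFC and -0.61 to 0.76 for EDN1. With no limit on the coefficient of variation, the rule of the study called 2501 genes and 5 members. Depth limits FLT1, KDR and ANGPT1, whose reads numbered 0 to 20 per library.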
